A study of Homo sapiens with 6 samples.

Results

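WI38 cells, human diploid lung fibroblasts that stop dividing after a limited number of passages, received either the antisense oligonucleotide AS1, which is directed against the long noncoding RNA MALAT1, or a control oligonucleotide of scrambled sequence (Ctr). The AS1 response described here rests on 2 AS1 arrays and 2 Ctr arrays of the 6 exon arrays in the series, chosen by their titles alone. The other 2 arrays come from cells given a second MALAT1 oligonucleotide, AS2, and enter as a comparison. Every group, Ctr included, was transfected 2 times at 100 nM with an interval of 24 h, so the Ctr cells too were given phosphorothioate DNA and transfection reagent. Gene levels are log2 RMA values (background-corrected and normalised signals), averaged on each array over the probesets annotated to a single gene, and 15417 genes with at least 3 such probesets were compared, of 16573 with any. A gene is called here when its limma adjusted p (Benjamini-Hochberg, over all genes) is under 0.05, and errors written with ± are standard errors of a log2 difference between 2 and 2 arrays. Nothing in the sources says whether the 2 arrays of a group come from separate cultures, so p-values here capture no more than the scatter among these samples, and all cells are of 1 line.

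MALAT1 is a very abundant RNA of the nucleus, where it collects in nuclear speckles, the bodies that store splicing factors. A DNA oligonucleotide that pairs with an RNA inside the nucleus recruits RNase H, an enzyme that cuts the RNA strand of such a hybrid, and this is how antisense DNA lowers a transcript. Fibroblasts that leave the cell cycle are known to switch off the genes of DNA replication and mitosis, and foreign nucleic acid in a cell can by itself induce genes of the interferon response.

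The 3 oligonucleotides are shown because they are the only designed difference between the groups. Capitals mark a CG pair.
MALAT1-AS1: gggagttacttgccaacttg
MALAT1-AS2: atggaggtatgacatataat
SCR-OLIGO (Ctr): gttagtgataCGatgataaa
Each has 20 bases. AS1 holds 10 bases that are G or C and AS2 and the control hold 6 each. Only the control has a CG pair, and AS1 starts with a run of 3 G, the longest such run among the 3 sequences.

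The targeted RNA was examined first. MALAT1 lay at 9.23 and 7.82 on the AS1 arrays against 12.01 and 11.97 on the Ctr arrays. Both AS1 arrays were far below both Ctr arrays, but AS1 replicate 1 kept more signal than AS1 replicate 2, a gap of 1.41 between the 2 AS1 arrays where the Ctr arrays were 0.04 apart. The change was -3.46 ± 0.33 (11-fold lower, limma adjusted p = 0.000115). All 11 probesets of the gene were called lower with AS1, and their changes ran from -4.44 to -2.50. AS1 replicate 2 was below AS1 replicate 1 at every one of the 11 probesets, by 0.87 to 2.19.

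AS1 moved many genes in both directions. Of the 15417 genes 3082 (20%) were called, 1822 higher (11.8%) and 1260 lower (8.17%), with a median change of 0.67 among the higher and -0.65 among the lower genes. Changes over 2-fold were found for 320 higher and 209 lower genes, over 4-fold for 37 and 13, and over 8-fold for 6 and 2. At an unadjusted p under 0.05 the count was 4828. Both AS1 arrays lay above both Ctr arrays in 27.7% of genes and below them in 27.8%, and all called genes were among these. In 926 of the higher and 614 of the lower genes (6.01% and 3.98%) the call also held in each of the 6 fits that leave out 1 array, and unless stated the genes named below are of this kind. For AS1 against Ctr the fits without AS2 replicate 1 and without AS2 replicate 2 are the same, since a lone AS2 array adds nothing to the spread. Over all genes the standard deviation of the AS1 change was 0.43, against 0.25 for the difference between the 2 AS1 arrays and 0.25 between the 2 Ctr arrays. The median change of all genes was -0.05. The number of genes called higher was 1183 without AS1 replicate 1 and 1201 without Ctr replicate 1, and a plain ANOVA without limma's pooling of variances across genes called 142 genes in all. Tested singly, 3.57% of the 216780 probesets with 1 gene symbol were called higher and 3.12% lower, against 1.87% and 1.66% of the 13364 probesets that carry no symbol.

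**Figure D1:**
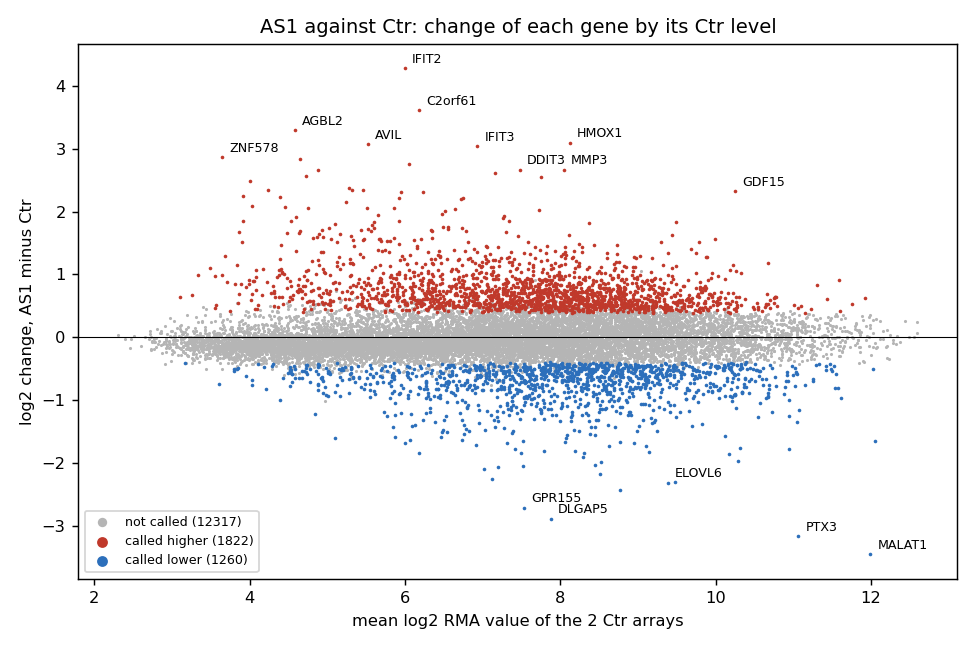
Each point is a gene, with its mean log2 RMA value on the 2 Ctr arrays across and its log2 change AS1 minus Ctr up. Red genes were called higher (1822), blue lower (1260) and grey not called. IFIT2 shows the largest rise (4.28), and MALAT1 (-3.46) and PTX3 (-3.17) fell from high levels.

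The level of a gene in Ctr cells bore on how often it was called. With genes split into 3 equal groups (tertiles) by Ctr level, in the lowest tertile 7.24% of genes were called higher and 3.11% lower, in the middle tertile 14.5% and 8.52%, and in the highest tertile 13.7% and 12.9%. The median change was -0.10, -0.03 and 0.02 in these tertiles. Rises of dim genes start close to the array's background, so that their sizes are less certain than those of bright genes.

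The strongest falls after MALAT1 belonged to genes of very different roles. PTX3, a secreted pattern recognition protein of innate immunity, lay at 8.13 and 7.66 with AS1 and 11.30 and 10.83 with Ctr, a change of -3.17 ± 0.19 (8.99-fold lower, adjusted p = 7.29e-06). DLGAP5, a microtubule-binding protein of the mitotic spindle, was at 5.18 and 4.79 against 7.69 and 8.06 (-2.89 ± 0.17). For GPR155, a membrane protein that senses cholesterol at the lysosome, the values were 4.88 and 4.74 against 7.58 and 7.47 (-2.72 ± 0.14). In each of these the AS1 values stayed far below both Ctr values. SYT1, a calcium sensor of vesicle release, changed by -2.43 ± 0.16, ELOVL6, an enzyme that lengthens fatty acids, by -2.32 ± 0.18, the urea transporter SLC14A1 by -2.30 ± 0.18, and the fatty acid elongase ELOVL2 by -1.91 ± 0.18. The spindle checkpoint kinase BUB1B (-2.17 ± 0.20), the DNA translocase HLTF (-2.03 ± 0.18), FAM111B (-2.07 ± 0.28), TMEM168 (-2.05 ± 0.16), VAT1L (-1.99 ± 0.20), the RNA helicase BAT1 (now DDX39B, -1.97 ± 0.17) and the cytokinesis scaffold ANLN (-1.86 ± 0.18) complete the 15 strongest falls among brighter genes.

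The strongest rises were led by an interferon-induced gene. IFIT2, which binds RNA in antiviral defence, lay at 10.12 and 10.44 with AS1 and 5.91 and 6.08 with Ctr, a change of 4.28 ± 0.22 (19.5-fold higher, adjusted p = 3.66e-06). HMOX1, the enzyme that degrades haem, was at 11.26 and 11.17 against 8.07 and 8.16 (3.10 ± 0.13, 8.56-fold). The 2 Ctr values of HMOX1 were close to each other and so were the 2 AS1 values. The transcription factor DDIT3 (CHOP), which rises in endoplasmic reticulum stress and amino acid shortage, lay at 10.06 and 10.24 against 7.34 and 7.62 (2.67 ± 0.16). MMP3, a matrix protease, lay at 10.77 and 10.65 against 8.5 and 7.59 (2.67 ± 0.24), with the Ctr arrays further apart than the AS1 arrays. IL24, a secreted cytokine, changed by 2.38 ± 0.14. Other strong rises were those of C2orf61 (3.61 ± 0.14), AVIL, which binds actin (3.08 ± 0.13), AGBL2, which trims tubulin tails (3.30 ± 0.14), ACRC (2.56 ± 0.13) and ALS2CR12 (2.84 ± 0.17). The monocarboxylate transporter genes SLC16A14 (2.76 ± 0.14) and SLC16A6 (2.54 ± 0.40) rose as well. For SLC16A6 the 2 Ctr arrays were at 8.62 and 6.88, and without Ctr replicate 2 the change was 1.68.

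**Figure D2:**
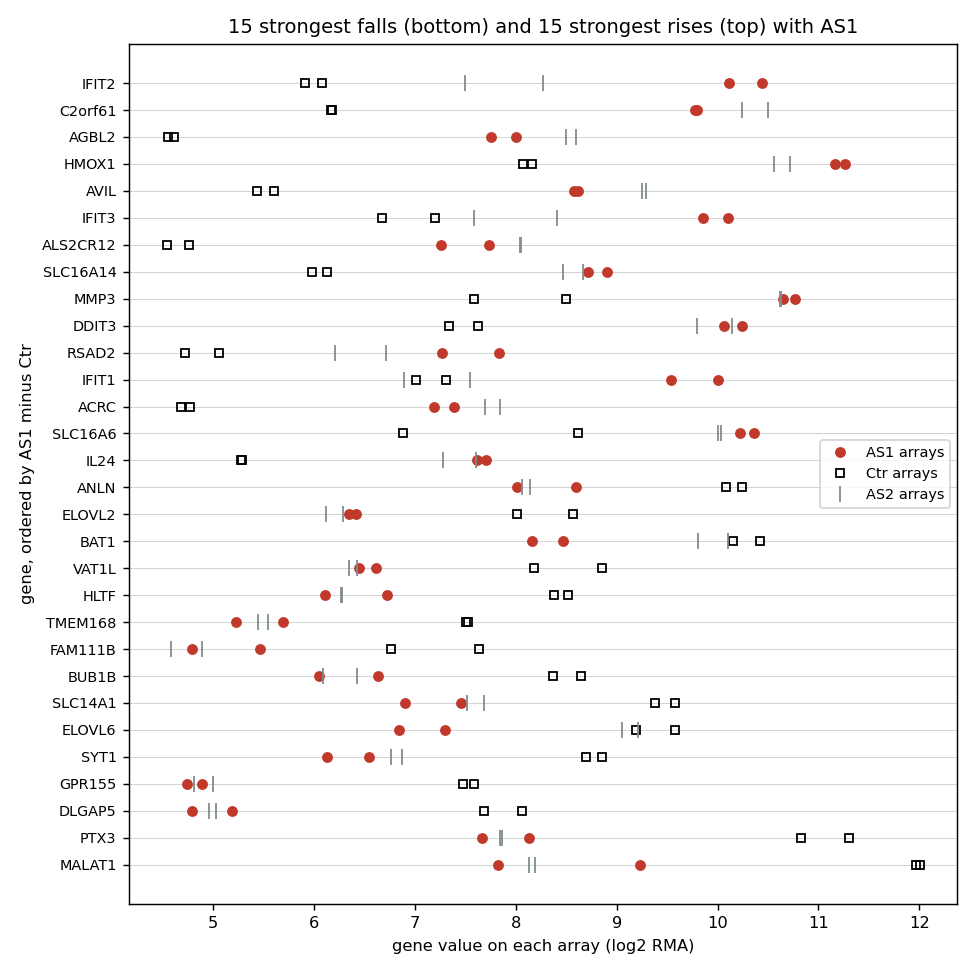
Gene values (log2 RMA) on each array for the 15 strongest falls, at the bottom, and the 15 strongest rises, at the top, among genes called with AS1 in every fit and not dim in both groups. Red circles are the 2 AS1 arrays, open squares the 2 Ctr arrays and grey ticks the 2 AS2 arrays. AS1 and Ctr do not overlap for any gene shown, as is so for every called gene. For ELOVL6, BAT1 and IFIT1 the AS2 ticks lie with or near the Ctr squares.

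Genes of mitosis fell. Of 48 measured genes of the spindle, condensin and cytokinesis 37 fell and 0 rose (77.1%, against 8.17% lower over all genes), with a list median of -0.84 where all genes had -0.05. In 45 of the 48 both AS1 arrays lay below both Ctr arrays, against 27.8% of all genes. At an unadjusted p under 0.05 limma gave 43 lower and 0 higher. Of 36 kinetochore and spindle checkpoint genes 18 fell and 0 rose (50%), with a median of -0.56. BUB1B lay at 6.63 and 6.05 with AS1 and 8.37 and 8.65 with Ctr, and BUB1, another checkpoint kinase, at 6.63 and 6.13 against 8.01 and 8.37 (-1.81 ± 0.19). The kinetochore motor CENPE was at 5.15 and 4.59 against 6.25 and 6.67 (-1.59 ± 0.20). In all 3 the AS1 arrays lay well below the Ctr arrays, with AS1 replicate 2 the lowest. The condensin subunit NCAPG changed by -1.81 ± 0.18, the chromosomal passenger CDCA8 by -1.50 ± 0.17, the kinetochore subunit SPC25 by -1.51 ± 0.27, the checkpoint kinase TTK by -1.51 ± 0.21, the mitotic kinesin KIF20A by -1.49 ± 0.22 and topoisomerase TOP2A by -1.31 ± 0.19. The kinases AURKB (-1.09 ± 0.16) and PLK1 (-0.91 ± 0.13) and cyclin CCNB1 (-1.0 ± 0.15) fell too.

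Not all mitotic genes followed. The centromeric histone CENPA was at 8.66 and 8.54 with AS1 and 8.59 and 8.62 with Ctr (0.00 ± 0.13, adjusted p = 0.993), the cytokinesis activator ECT2 at 0.17 ± 0.15 (adjusted p = 0.519) and the checkpoint protein BUB3 at -0.17 ± 0.13 (adjusted p = 0.427). For these 3 the AS1 and Ctr ranges overlapped or lay close together. The size of the fall also differed between arrays. Against the Ctr mean the mean change of the spindle list was -0.73 on AS1 replicate 1 and -1.04 on AS1 replicate 2, and that of the kinetochore list -0.40 and -0.81, while the Ctr arrays differed, replicate 2 minus replicate 1, by 0.23 and 0.28. AS1 replicate 2 was also the array with less MALAT1, and with 2 arrays no relation between these values was tested. In such bulk samples fewer cells in mitosis and less RNA per cell cannot be told apart.

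Promoters of 3 strongly lowered mitotic genes are shown because genes of this program are known to share 2 short elements, the CHR (TTTGAA) and the CCAAT box. Each window runs from 250 bases before to 50 bases after the RefSeq start (GRCh38.p14), 5′ to 3′ on the strand of the gene, and capitals mark either element on either strand.
DLGAP5, chr14:55191536-55191835, minus strand: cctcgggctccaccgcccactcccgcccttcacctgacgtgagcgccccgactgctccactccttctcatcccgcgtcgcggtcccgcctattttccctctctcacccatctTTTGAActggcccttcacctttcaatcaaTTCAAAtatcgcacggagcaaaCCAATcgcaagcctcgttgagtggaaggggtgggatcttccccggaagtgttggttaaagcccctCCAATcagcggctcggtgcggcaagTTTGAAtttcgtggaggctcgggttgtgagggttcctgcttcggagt
BUB1B, chr15:40160819-40161118, plus strand: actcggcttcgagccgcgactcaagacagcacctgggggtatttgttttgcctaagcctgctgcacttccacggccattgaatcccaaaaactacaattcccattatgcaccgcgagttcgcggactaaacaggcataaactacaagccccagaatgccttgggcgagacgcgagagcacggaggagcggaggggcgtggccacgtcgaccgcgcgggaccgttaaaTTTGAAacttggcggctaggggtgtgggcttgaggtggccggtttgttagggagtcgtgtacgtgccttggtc
ANLN, chr7:36389612-36389911, plus strand: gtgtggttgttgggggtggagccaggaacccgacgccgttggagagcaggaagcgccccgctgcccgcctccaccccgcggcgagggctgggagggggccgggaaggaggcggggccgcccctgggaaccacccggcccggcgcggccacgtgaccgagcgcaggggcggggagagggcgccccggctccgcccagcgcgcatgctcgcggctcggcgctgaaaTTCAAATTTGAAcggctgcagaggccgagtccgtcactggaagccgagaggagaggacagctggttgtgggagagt
The DLGAP5 window holds 3 CHR and 2 CCAAT matches, BUB1B 1 CHR and ANLN 2 CHR matches. A promoter window was matched for 12347 of the genes tested. The CHR was found in 65.6% of the spindle genes that fell, in 23.8% of all genes that fell over 2-fold, in 12.6% of all called lower, in 11% of those called higher and in 11.4% of all genes tested. The CCAAT box, searched as CCAAT, was found in 68.8% of the same spindle genes and 36.3% of all. The measured spindle list as a whole, with its members that did not fall, held the CHR in 69% of its windows, so that the share belongs to the list and not to the falling members alone. These matches of letters are a description.

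Many genes of DNA replication fell too. Of 57 measured genes 26 fell (45.6%) and 1 rose, with a median of -0.43. UHRF1, which keeps DNA methylation through replication, lay at 7.40 and 7.24 with AS1 and 8.95 and 9.34 with Ctr (-1.82 ± 0.16, adjusted p = 6.62e-05). Cyclin CCNE2 changed by -1.53 ± 0.22, the polymerase subunits POLE2 and POLA1 by -1.48 ± 0.22 and -1.34 ± 0.18, the histone chaperone ASF1B by -1.48 ± 0.19, the helicase subunit GINS2 by -1.43 ± 0.22 and the helicase MCM6 by -1.19 ± 0.20. The polymerase clamp PCNA was at 9.08 and 9.07 against 8.94 and 9.18 (0.02 ± 0.13, adjusted p = 0.951), and the helicase subunit MCM5 at 0.23 ± 0.15 (adjusted p = 0.334). The 1 that rose was ORC5L of the origin recognition complex (0.65 ± 0.16), which lost its call without Ctr replicate 1. MCM6 and MCM5 belong to the same helicase, and the difference between their changes was not tested.

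Of 18 measured transcription factors of this program 5 fell (27.8%, against 8.17% of all genes) and 3 rose (16.7%, against 11.8%). MYBL2 (B-MYB), which drives genes of the G2 and M phases, lay at 7.56 and 7.54 against 8.53 and 9.0 (-1.21 ± 0.18), and FOXM1, which does so too, at 8.34 and 8.10 against 8.91 and 9.34 (-0.90 ± 0.17). Both AS1 arrays were below both Ctr arrays for each. E2F8 changed by -1.24 ± 0.14, RBL1 (p107) by -0.58 ± 0.16 and E2F1 by -0.41 ± 0.13 (adjusted p = 0.0419). E2F1 lost its call in each of the 6 fits that leave out 1 array, with its change between -0.44 and -0.39, and RBL1 lost it in 4, without AS1 replicate 2, Ctr replicate 2 or either AS2 array. E2F7, a repressor of E2F targets, rose by 1.26 ± 0.17, as did TFDP2 (0.65 ± 0.16) and LIN54 (0.67 ± 0.16), of which the first lost its call without Ctr replicate 1 and the second also without AS1 replicate 1.

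Among 53 DNA repair and damage signalling genes 21 fell (39.6%, against 8.17% of all genes) and 5 rose (9.43%, against 11.8%), with a median of -0.31. HLTF lay at 6.72 and 6.11 with AS1 and 8.37 and 8.52 with Ctr. The helicase BLM (-1.22 ± 0.21), the Fanconi anaemia gene FANCD2 (-1.20 ± 0.18), the kinase ATR (-1.46 ± 0.15) and PARP1 (-0.80 ± 0.17), which detects strand breaks, fell. The damage adaptor MDC1 went the other way, from 6.79 and 6.97 on the Ctr arrays to 8.24 and 8.34 on the AS1 arrays (1.41 ± 0.15), and so did the mismatch repair gene PMS2 (0.75 ± 0.13). Without Ctr replicate 2 the number of members that fell was 12 in place of 21, and the number that rose was 3 in place of 5 in every fit without 1 array but that without AS1 replicate 2.

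**Figure D3:**
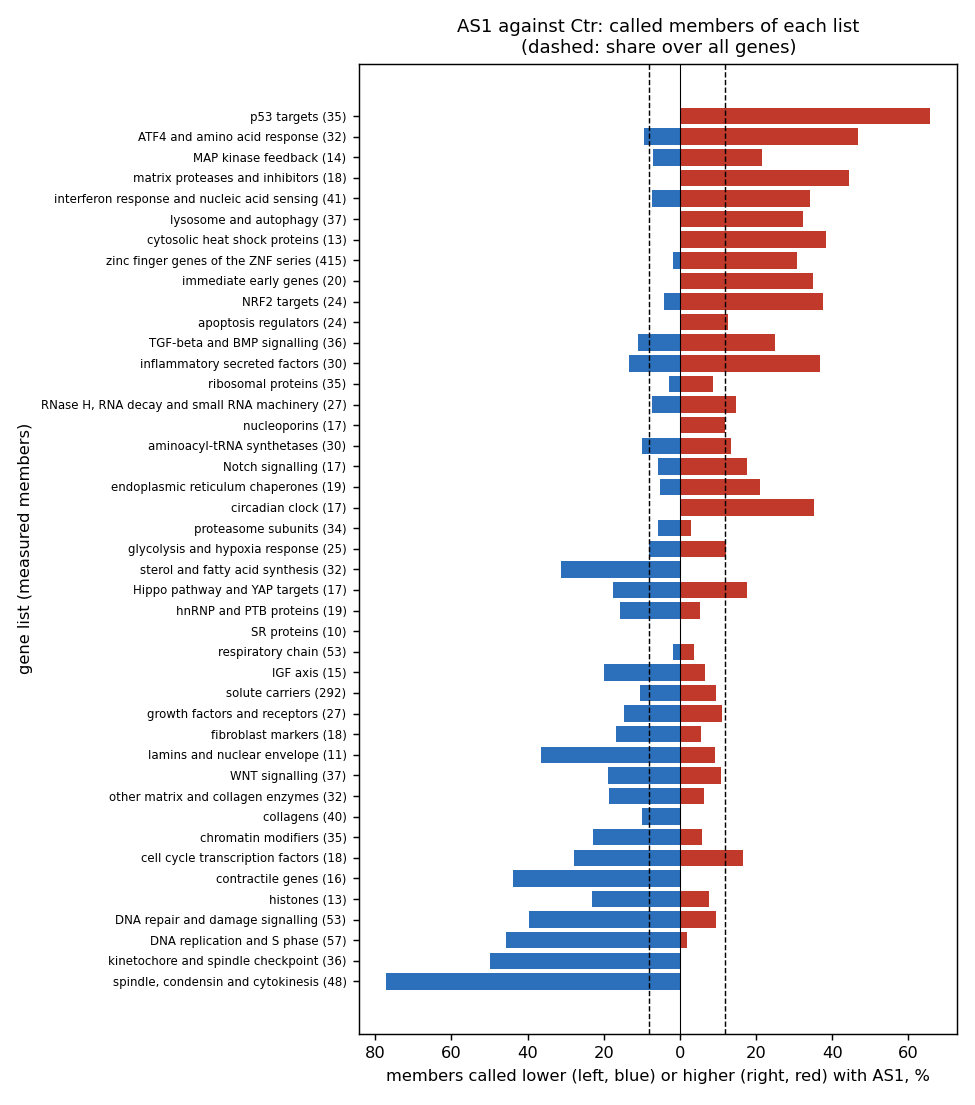
Share of the measured members of each list with 10 or more measured genes that were called higher (red, to the right) or lower (blue, to the left) with AS1, in percent, ordered by the list's median change. Dashed lines mark the share over all genes, 11.8% higher and 8.17% lower. Mitotic and replication genes extend furthest to the left and p53 targets furthest to the right.

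Targets of p53 rose. Of 35 measured genes 23 rose (65.7%, against 11.8% over all genes) and 0 fell, with a median of 0.75. In 30 of the 35 both AS1 arrays lay above both Ctr arrays, against 27.7% of all genes. At an unadjusted p under 0.05 limma gave 28 higher and 0 lower. The list mean rose by 0.68 on AS1 replicate 1 and 0.65 on AS1 replicate 2, so that the 2 arrays were closer to each other here than in the mitotic lists. GDF15, a secreted stress cytokine, lay at 12.55 and 12.61 with AS1 and 10.69 and 9.81 with Ctr (2.33 ± 0.23, 5.03-fold, adjusted p = 0.000126). The cell death gene PMAIP1 (NOXA) changed by 1.27 ± 0.15, SPATA18 by 1.27 ± 0.14, the nuclease AEN by 1.13 ± 0.16 and the growth arrest gene GADD45A by 1.08 ± 0.13. MDM2, a ubiquitin ligase, was at 10.97 and 10.97 against 9.91 and 10.00 (1.02 ± 0.13), and the death receptor FAS changed by 0.78 ± 0.16. CDKN1A (p21), which inhibits cyclin-dependent kinases, was bright in both groups, at 11.45 and 11.38 against 10.80 and 10.73 (0.65 ± 0.13, 1.57-fold, adjusted p = 0.00492).

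The other inhibitors of cyclin-dependent kinases were not called higher. Of the 7 measured, CDKN1A alone rose (14.3%, near the 11.8% of all genes) and 2 fell (28.6%, against 8.17%). CDKN1B (p27) lay at 8.74 and 8.61 against 8.18 and 8.49 (0.34 ± 0.15, adjusted p = 0.16). CDKN2A (p16), a marker of senescent fibroblasts, changed by -0.48 ± 0.14 and CDKN2C by -0.71 ± 0.15. The call of CDKN2C was lost without Ctr replicate 2, and that of CDKN2A without AS1 replicate 1, Ctr replicate 1 or either AS2 array. Of 24 apoptosis regulators 3 rose (12.5%, near the share over all genes), namely PMAIP1, BMF (0.96 ± 0.14) and BCL2L1 (0.77 ± 0.13), the last of which protects cells from death. Without AS1 replicate 2 that count was 5.

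Genes of the ATF4 response, which cells switch on when amino acids run short or proteins misfold, rose as well. Of 32 measured genes 15 rose (46.9%) and 3 fell, with a median of 0.39. Beside DDIT3, the pseudokinase TRIB3 lay at 9.16 and 9.66 against 8.06 and 8.06 (1.35 ± 0.16), and PPP1R15A (GADD34), which restores translation, at 10.75 and 10.71 against 9.48 and 9.30 (1.34 ± 0.13). The cystathionine lyase CTH changed by 1.09 ± 0.21, the cystine transporter SLC7A11 by 0.83 ± 0.13, ATF3 by 0.84 ± 0.13, the glutathione-degrading enzyme CHAC1 by 0.52 ± 0.14 and asparagine synthetase ASNS by 0.49 ± 0.14. The calls of CHAC1 and ASNS were each lost in some fits that leave out 1 array, both among them without AS1 replicate 2. The mRNA of ATF4 itself was lower, at 9.49 and 8.90 with AS1 and 10.12 and 9.95 with Ctr (-0.85 ± 0.20, adjusted p = 0.0136), and without AS1 replicate 2 its change was -0.55. The number of list members that fell was 1 without Ctr replicate 2. Of 19 chaperones of the endoplasmic reticulum 4 rose (21.1%, against 11.8% of all genes) and 1 fell (5.26%, against 8.17%). The sensor kinase ERN1 (IRE1) changed by 1.08 ± 0.12 and the co-chaperone DNAJB9 by 0.71 ± 0.16, whereas the chaperone HYOU1 changed by -0.87 ± 0.13. Of 13 cytosolic heat shock proteins 5 rose (38.5%, against 11.8% of all genes) and 0 fell. Among those that rose were the small heat shock proteins CRYAB (0.93 ± 0.16) and HSPB8 (0.73 ± 0.13). The number of chaperones that rose was smallest without AS1 replicate 1 or Ctr replicate 1. Fewer heat shock proteins rose in every fit that leaves out 1 array, and fewest without AS1 replicate 1.

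Targets of NRF2, the factor that answers oxidants and electrophiles, rose in 9 of 24 cases (37.5%) and fell in 1. HMOX1 had the largest change among them. Sulfiredoxin SRXN1 lay at 10.73 and 11.02 against 9.92 and 9.96 (0.94 ± 0.14), the light ferritin chain FTL changed by 0.86 ± 0.20, and the subunits of the enzyme that starts glutathione synthesis, GCLC and GCLM, by 0.75 ± 0.13 and 0.68 ± 0.17, the latter without a call when Ctr replicate 1 was left out. Thioredoxin reductase TXNRD1 changed by 0.70 ± 0.12. NQO1, a classic target that was already bright, was at 11.69 and 11.75 against 11.51 and 11.58 (0.17 ± 0.12, adjusted p = 0.387). The ketosteroid reductase AKR1C2 was the 1 that fell (-1.26 ± 0.20). The list median was 0.20, far below the change of HMOX1.

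Interferon-induced genes rose with AS1, and many of them differed between AS1 and AS2. Of 41 measured genes of the interferon response and nucleic acid sensing 14 rose (34.1%) and 3 fell with AS1, with a median of 0.31, and 10 rose over 2-fold. With AS2, against the same Ctr arrays, 7 rose and 11 fell, with a median of 0.01. The direct test of AS1 against AS2 called 11 of the 41 genes higher with AS1 and 0 lower, where 0.506% of all genes were called higher. With AS1 the level of IFIT1 was 9.54 and 10.00, with AS2 6.89 and 7.55 and with Ctr 7.01 and 7.31. AS1 arrays stood alone above the other 4, by 2.55 ± 0.22 over AS2 (adjusted p = 0.000643). IFIT2 was at 7.5 and 8.27 with AS2, between its AS1 and Ctr values, and AS1 lay above AS2 by 2.39 ± 0.22 (adjusted p = 0.00078). IFIT3 stood at 9.85 and 10.10 with AS1, 7.58 and 8.40 with AS2 and 6.67 and 7.20 with Ctr, an excess over AS2 of 1.99 ± 0.25 (adjusted p = 0.00643).

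The same order was seen for RSAD2 (viperin), an antiviral enzyme, with a change of 2.66 ± 0.22 with AS1 and 1.58 with AS2, for the ubiquitin-like ligase HERC5 (2.35 ± 0.18 and 0.99) and for OASL (1.95 ± 0.18 and 0.69). IFIH1 (MDA5), a sensor of double-stranded RNA, changed by 1.58 ± 0.13 with AS1 and 0.21 with AS2, IFI44 by 1.67 ± 0.16 and 0.14, and HERC6 by 1.54 ± 0.24 and 0.11. DDX58 (RIG-I), the related RNA sensor, was at 7.53 and 7.76 with AS1 and 7.74 and 7.59 with Ctr, with overlapping arrays (-0.02 ± 0.16), and changed by -1.11 with AS2. MX1 changed by 0.87 ± 0.22 with AS1, but by 0.47 (adjusted p = 0.0695) without AS1 replicate 2. IFNB1, which encodes interferon beta, was among the dimmest genes, at 3.51 and 3.07 against 3.09 and 2.86 (0.31 ± 0.17, adjusted p = 0.244), and ISG15 was at 0.25 ± 0.15 (adjusted p = 0.275). The 3 list members that fell were the GTPase genes GBP2 (-1.41 ± 0.15) and GBP1 (-0.61) and the immunoproteasome subunit PSMB9 (-0.75 ± 0.14), of which GBP1 lost its call without AS1 replicate 2, either AS2 replicate or Ctr replicate 2.

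Of the 41 genes 19 lay in the lowest tertile of all genes by Ctr level, so that folds of those members are uncertain. Leaving out AS2 replicate 1 or 2 lowered the number of list members that differed between AS1 and AS2 from 11 to 2 and 6, the 2 being IFIT1 and IFIT2, while leaving out an AS1 or a Ctr array gave 11 to 16.

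**Figure D4:**
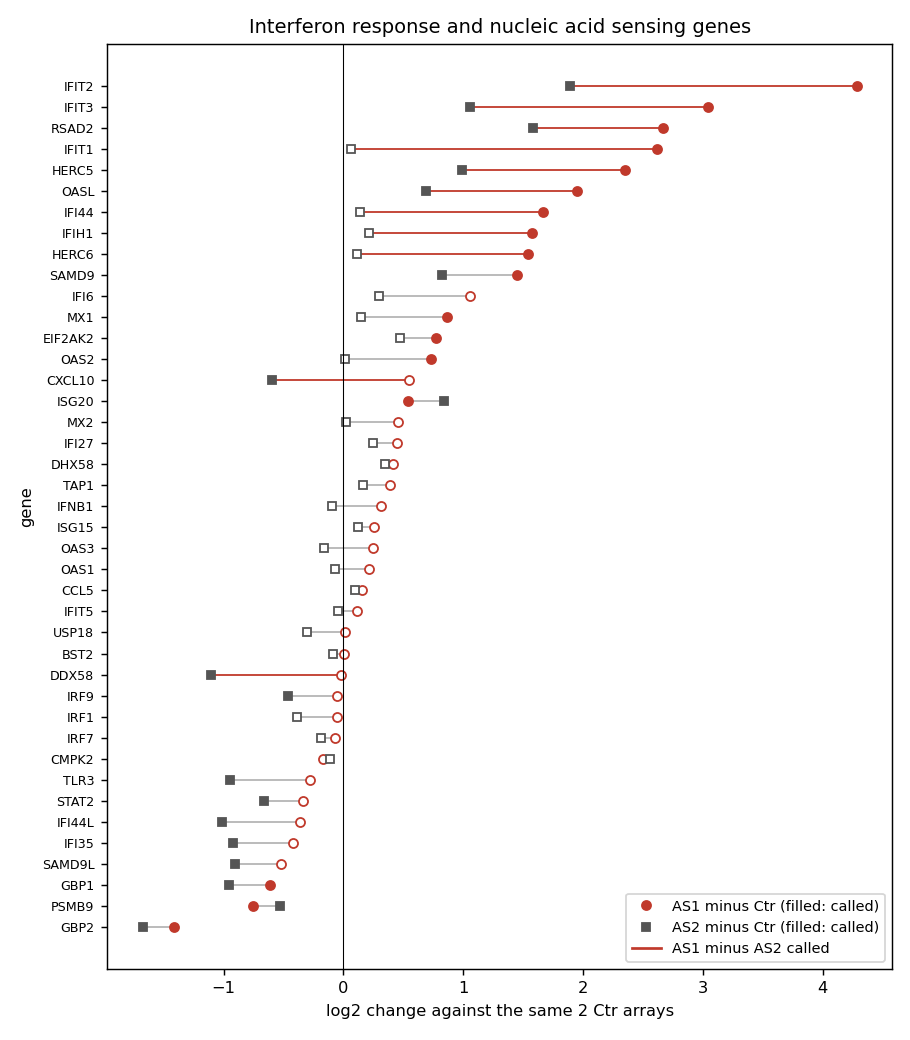
Log2 change against the same 2 Ctr arrays for the 41 measured genes of the interferon response and nucleic acid sensing, with AS1 (red circles) and AS2 (grey squares). Filled symbols were called against Ctr, and a red line joins values where AS1 and AS2 differed in the direct test. In each of the 11 genes so marked, from IFIT2 to DDX58, AS1 lies to the right.

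The promoters of IFIT1 and IFIT3 are shown because interferon-induced genes are known to carry an ISRE, the site of interferon regulatory factors, whose core was searched as GAAA, any 2 bases and GAAA again, on both strands. The windows follow the same rule as above, and capitals mark the core, which appears here in its reverse form.
IFIT1, chr10:89392373-89392672, plus strand: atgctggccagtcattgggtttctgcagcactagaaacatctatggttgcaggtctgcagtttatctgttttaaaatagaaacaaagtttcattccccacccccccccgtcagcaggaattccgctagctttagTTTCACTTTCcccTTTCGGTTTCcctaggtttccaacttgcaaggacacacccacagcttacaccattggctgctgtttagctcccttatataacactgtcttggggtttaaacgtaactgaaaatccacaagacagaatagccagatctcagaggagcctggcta
IFIT3, chr10:89327747-89328046, plus strand: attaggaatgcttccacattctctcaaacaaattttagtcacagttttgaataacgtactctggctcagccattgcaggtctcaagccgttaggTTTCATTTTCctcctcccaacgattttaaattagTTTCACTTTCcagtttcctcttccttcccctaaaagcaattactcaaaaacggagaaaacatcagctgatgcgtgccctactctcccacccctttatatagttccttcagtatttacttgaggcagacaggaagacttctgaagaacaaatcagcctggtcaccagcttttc
Each window has 2 matches. The core was present in 9 of the 11 list members that rose and have a window (81.8%), in 62.5% of the list's windows as a whole, in 3.11% of all genes called higher and in 2.93% of all genes tested.

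Secreted inflammatory factors split. Of 30 measured 11 rose (36.7%, against 11.8% of all genes) and 4 fell (13.3%, against 8.17%). The chemokine IL8 (CXCL8) lay at 8.91 and 8.17 with AS1 and 6.13 and 6.32 with Ctr (2.31 ± 0.21, 4.97-fold), and the prostaglandin synthase PTGS2 (COX-2) at 7.28 and 7.20 against 5.46 and 5.59 (1.72 ± 0.13). IL1B changed by 1.28 ± 0.18 and the chemokine CCL26 by 1.64 ± 0.13. In the other direction, the monocyte attractant CCL2 lay at 8.61 and 8.5 against 10.44 and 10.18 (-1.76 ± 0.14, 3.38-fold lower) and the adhesion molecule VCAM1 changed by -1.68 ± 0.15. IL6, the best-known cytokine of senescent fibroblasts, was at 6.22 and 5.87 against 6.02 and 6.14, with overlapping arrays (-0.03 ± 0.15, adjusted p = 0.923). Of 18 matrix proteases and their inhibitors 8 rose (44.4%) and 0 fell. Beside MMP3, the collagenase MMP1 lay at 12.52 and 12.49 against 11.69 and 11.49 (0.92 ± 0.13), the plasminogen activator inhibitor SERPINB2 changed by 1.28 ± 0.13 and MMP10 by 0.97 ± 0.17. Fewer genes of this list rose in every fit that leaves out 1 array, and fewest without AS1 replicate 2. Of 20 immediate early genes 7 rose (35%) and 0 fell, with NR4A1 (1.23 ± 0.13), IER3 (1.18 ± 0.13), NR4A3 (0.95 ± 0.14) and KLF4 (0.85 ± 0.13) in front.

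Zinc finger genes of the ZNF series, most of which encode DNA-binding repressors, rose in large number. Of 415 measured 128 rose (30.8%, against 11.8% of all genes) and 8 fell (1.93%, against 8.17%), with a median of 0.24. On human chromosome 19, where many of them sit in tandem arrays, 76 of 184 rose (41.3%) and 1 fell, and the median was 0.41. Of the 231 ZNF genes elsewhere 52 rose (22.5%) and 7 fell, with a median of 0.14. The other 894 genes of chromosome 19 rose in 4.81% of cases and fell in 8.61%, with a median of -0.08. ZNF432 lay at 8.96 and 8.90 with AS1 and 6.62 and 6.83 with Ctr (2.21 ± 0.14, 4.61-fold, adjusted p = 8.78e-06). ZNF468 lay at 7.70 and 7.84 against 5.86 and 5.97 (1.85 ± 0.15). Both genes are on chromosome 19, and in both the AS1 arrays were close together and far above the Ctr arrays. ZNF578 (2.87 ± 0.25) and ZNF560 (2.16 ± 0.14) rose from dim levels. ZNF827 (-1.07 ± 0.14), ZNF70 (-0.84 ± 0.14) and ZNF706 (-0.83 ± 0.17), none of them on chromosome 19, were the largest falls that held, and without Ctr replicate 2 there were 5 falls in place of 8.

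The excess of ZNF genes that rose was present in the lowest and middle tertiles by Ctr level and nearly absent in the highest. In the lowest tertile by Ctr level 32.3% of ZNF genes rose against 6.46% of other genes, in the middle tertile 33% against 13.7%, and in the highest tertile, which holds only 42 ZNF genes, 14.3% against 13.7%. The list mean changed by 0.40 on AS1 replicate 1 and 0.24 on AS1 replicate 2, the reverse order of the mitotic lists. With 1 array left out 90 to 159 of the 415 rose in total and 57 to 96 of the 184 on chromosome 19. Of the ZNF genes elsewhere 33 rose without AS1 replicate 1, and of the other chromosome 19 genes 28 rose without Ctr replicate 2. AS2 gave 114 higher and 7 lower, and 64 and 0 on chromosome 19, against the same Ctr arrays. Many ZNF genes are near copies of each other, and probes may detect more than 1 of them.

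**Figure D5:**
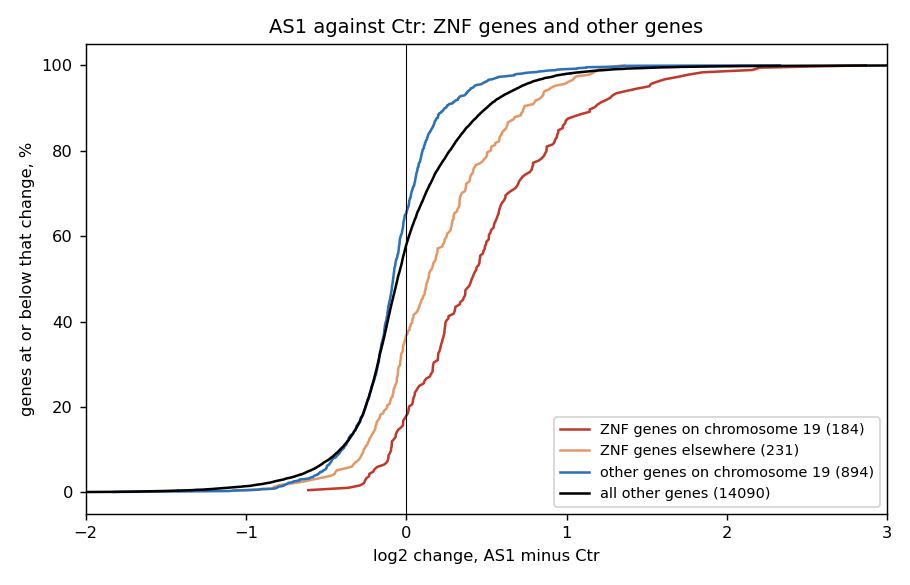
Cumulative share of genes (%) at or below a given log2 change AS1 minus Ctr, for ZNF genes on chromosome 19 (184), ZNF genes elsewhere (231), other genes on chromosome 19 (894) and all remaining genes. The curve of the chromosome 19 ZNF genes is shifted to the right, with a median of 0.41, while other genes of that chromosome have a median of -0.08.

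Most fibroblast markers were bright. Of 18 measured fibroblast markers 15 lay in the highest tertile of all genes by Ctr level, and of the 7 epithelial, 9 endothelial and 5 leukocyte markers 0, 1 and 0 did. Vimentin (VIM) was at 11.69 and 11.55 with AS1 and 11.48 and 11.56 with Ctr (0.09 ± 0.13), and the collagen genes COL1A1 and COL1A2 at -0.14 ± 0.14 and -0.17 ± 0.14, none of them called. Of the 18 fibroblast markers 3 fell (16.7%, against 8.17% of all genes) and 1 rose, with a median of -0.13. Those that fell were COL3A1 (-0.91 ± 0.18), THY1 (-0.54) and PDGFRB (-0.53), and the number was 1 without AS1 replicate 2 or without Ctr replicate 2, while TCF21 rose (0.93). The summed level of the fibroblast list was 170.5 to 170.7 on the AS1 arrays and 171.8 to 174.0 on the Ctr arrays, that of the epithelial list 38.6 to 39.8 and 38.1 to 39.0, of the endothelial list 50.8 to 52.0 and 50.8 to 52.5, and of the leukocyte list 23.5 to 24.5 and 23.8 to 25.02. Among the markers of other cells, CLDN4 (0.86 ± 0.13) and PECAM1 (0.91 ± 0.14) rose.

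Genes of the contractile apparatus were lower in 7 of 16 cases (43.8%) and higher in 0, with a median of -0.26. Smooth muscle actin ACTA2 lay at 10.69 and 10.84 against 11.57 and 11.59 (-0.81 ± 0.17, 1.76-fold lower), the myosin kinase MYLK changed by -0.65 ± 0.13, calponin CNN2 by -0.70 ± 0.13 and the coactivator TGFB1I1 (HIC-5) by -0.79 ± 0.15. Collagens fell in 4 of 40 cases (10%, near the 8.17% of all genes), led by COL3A1 at 9.26 and 9.42 against 10.20 and 10.29 (-0.91 ± 0.18), and the count was 1 without AS1 replicate 1 and 2 without Ctr replicate 2. Of 32 other matrix genes and collagen enzymes 6 fell (18.8%, against 8.17% of all genes) and 2 rose (6.25%, against 11.8%). Among those that fell were the crosslinking enzyme LOXL1 (-1.20 ± 0.13), fibrillin FBN2 (-0.94 ± 0.17) and tenascin TNC (-0.90 ± 0.15). In TGF-beta and BMP signalling 9 of 36 genes rose (25%, against 11.8% of all genes) and 4 fell (11.1%, against 8.17%). Those that rose hold ligands, INHBA at 11.69 and 11.42 against 9.82 and 10.17 (1.56 ± 0.16) and BMP2 (1.21 ± 0.23, or 0.77 without Ctr replicate 2), and the inhibitors BAMBI (1.11 ± 0.13) and SMAD7 (0.94 ± 0.13), whereas the signal transducer SMAD3 (-0.78 ± 0.15) and the ligand BMP4 (-0.69 ± 0.13) fell. Fewer of these signalling genes fell in every fit that leaves out 1 array, and fewest without Ctr replicate 1. The YAP target ANKRD1 rose by 2.04 ± 0.21, but its list had 3 higher and 3 lower of 17. Each share was 17.6%, beside 11.8% higher and 8.17% lower over all genes.

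Lysosome and autophagy genes rose in 12 of 37 cases (32.4%) and fell in 0, mostly by small amounts (median 0.31). In 29 of the 37 both AS1 arrays lay above both Ctr arrays, against 27.7% of all genes. The cholesterol exporter of the lysosome NPC1 lay at 11.35 and 11.28 with AS1 and 9.83 and 9.14 with Ctr (1.83 ± 0.20, 3.55-fold). The autophagy gene UVRAG (1.05 ± 0.13), cathepsin CTSL1 (0.82 ± 0.14) and hexosaminidase HEXA (0.79 ± 0.13) followed, and the membrane protein LAMP2 was at 0.55 ± 0.15, a call lost without AS1 replicate 1 or Ctr replicate 1. TFEB, the factor that drives lysosome genes, was at -0.04 ± 0.16 (adjusted p = 0.88). Fewer list members rose in every fit that leaves out 1 array, and fewest without AS1 replicate 1. Sterol and fatty acid synthesis genes fell in 10 of 32 cases (31.2%) and rose in 0, with the desaturase SCD (-0.95 ± 0.16), the acetyl-CoA synthetase ACSS2 (-0.62 ± 0.13) and fatty acid synthase FASN (-0.71 ± 0.13) beside ELOVL6, although the list median was -0.01. That count of falls was smaller in every fit that leaves out 1 array, and smallest without AS1 replicate 2 or Ctr replicate 2.

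Splicing factors and other nuclear proteins were examined next. Of 10 measured SR proteins, the splicing factors that MALAT1 is known to bind, 0 were called by limma, where 20% of all genes were. At an unadjusted p under 0.05 limma gave 1. SFRS1 (SRSF1) was at 10.42 and 10.30 with AS1 and 10.12 and 10.36 with Ctr (0.12 ± 0.14, adjusted p = 0.593). In this list changes ran from -0.39 (SFRS9) to 0.27 (SFRS5). Of 19 hnRNP and PTB proteins 3 fell (15.8%, against 8.17% of all genes) and 1 rose (5.26%, against 11.8%). HNRNPAB (-0.99 ± 0.13), HNRNPA0 (-0.58) and the splicing repressor PTBP1 (-0.51 ± 0.13) fell. PTBP2, the neuronal relative that PTBP1 is known to silence, rose from 7.09 and 7.64 to 8.81 and 8.66 (1.37 ± 0.19). PTBP1 lost its call in all 4 fits that leave out an AS1 or a Ctr array and HNRNPA0 lost it without AS1 replicate 2, Ctr replicate 2 or either AS2 array, so that the number that fell was 1 without AS1 replicate 2 or Ctr replicate 2. Lamin LMNB1, whose loss marks senescent fibroblasts, lay at 5.88 and 5.85 against 7.21 and 7.83 (-1.65 ± 0.19, 3.15-fold lower). Of the 11 genes of its list 4 fell (36.4%, against 8.17% of all genes) and 1 rose (9.09%, against 11.8%). Fewer of them fell without Ctr replicate 2. Of 13 histone genes 3 fell (23.1%) and 1 rose (7.69%), and the linker histone gene HIST1H1B changed by -1.47 ± 0.20. Of 35 chromatin modifiers 8 fell (22.9%) and 2 rose (5.71%), and fewer fell in every fit that leaves out 1 array. The deacetylase gene HDAC8 changed by -1.17 ± 0.13 and the DNA methyltransferase gene DNMT1 by -0.60 ± 0.12, while HDAC9 (1.05 ± 0.13) and EZH1 (0.72 ± 0.15) rose. Among housekeeping groups 3 of 53 respiratory chain genes, 4 of 35 ribosomal protein genes and 3 of 34 proteasome genes were called in either direction, where 20% of all genes were. Of 9 reference genes 1, B2M, was called (0.62 ± 0.18), and not without AS1 replicate 2 or either Ctr array.

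AS1 and AS2 were then set against each other directly, a test in which the Ctr arrays enter only the estimate of the spread. Of all genes 166 (1.08%) differed, 78 higher with AS1 (0.506%) and 88 lower (0.571%), and 1447 had an unadjusted p under 0.05. In all 785 genes were called with AS1 and not with AS2, but only 48 of them differed in the direct test. Of the 88 genes lower with AS1 than with AS2, 31 were higher with both oligonucleotides than with Ctr, 28 were called with AS2 only, and 27 had fallen with AS1 and were not called with AS2. Of the 78 genes higher with AS1 than with AS2, 32 were called with AS2 only, 21 had risen with AS1 and were not called with AS2, 11 were higher with both and 10 lower with both. ELOVL6 lay at 7.29 and 6.84 with AS1, 9.06 and 9.22 with AS2 and 9.19 and 9.58 with Ctr, so that the AS2 arrays stayed near the Ctr arrays and AS1 was below AS2 by -2.07 ± 0.18 (adjusted p = 0.000643). RP2, a gene for a ciliary trafficking protein, lay at 6.96 and 6.84, 8.67 and 8.77 and 8.74 and 8.52 in the same order, with a difference of -1.82 ± 0.14 (adjusted p = 0.000308). BAT1 lay at 8.47 and 8.16, 10.10 and 9.81 and 10.15 and 10.42 (-1.64 ± 0.17). In all 3 genes the AS1 arrays alone were low.

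Further genes showed this pattern with smaller differences. The endosomal protein WDFY2 changed by -1.10 ± 0.14 with AS1 and 0.35 with AS2, the proteasome assembly chaperone PSMD5 by -1.42 ± 0.13 and -0.30, the nucleolar ribosome factor UTP15 by -1.13 ± 0.16 and 0.09, the formin FMNL2 by -1.47 ± 0.15 and -0.40, the microtubule protein EML4 by -1.14 ± 0.14 and -0.22, and FAF1 by -1.0 ± 0.15 and -0.07. The checkpoint kinase ATR fell with both, by -1.46 ± 0.15 with AS1 and -0.48 with AS2, and the direct difference was -0.98 ± 0.15. Of the genes higher with AS1 than with AS2, EDNRB, an endothelin receptor, rose with AS1 (1.56 ± 0.15) and was at 0.44 with AS2. Others were near Ctr with AS1 and low with AS2, as with CPSF2, a subunit of the pre-mRNA cleavage machinery, which lay at 9.04 and 8.76 with AS1, 6.95 and 6.95 with AS2 and 9.21 and 9.36 with Ctr, and SECISBP2, a selenoprotein translation factor, at 8.76 and 8.58, 6.44 and 6.43 and 8.19 and 8.61. In both the AS1 arrays were near the Ctr arrays. For AGBL2, AVIL and SLC13A4, a sulfate transporter, the rise was present with both oligonucleotides and smaller with AS1. The number of genes that differ rested on the AS2 arrays, being 13 without AS2 replicate 1 and 20 without AS2 replicate 2, each time a fit in which the lone AS2 array is assumed to vary like the other groups. Without Ctr replicate 1, and likewise without Ctr replicate 2, it was 274. For AS1 against AS2 these 2 fits are the same, since a lone Ctr array adds nothing to the spread. In every fit that leaves out 1 array ELOVL6, RP2, IFIT1, IFIT2, CPSF2 and SECISBP2 kept their difference.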

How the data were processed

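WI38 RNA (100 ng per sample) had been hybridised to Affymetrix Human Exon 1.0 ST arrays, 6 in all, with 2 per group. The authors deposited log2 values for 232479 exon probesets after RMA (background correction, quantile normalisation, summary per probeset), and used Partek for statistics. Their versions and the genome build are not given in the sources used for this work. RMA makes the arrays' distributions alike, so a shift common to most genes cannot be seen.

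Probesets that name 1 symbol (216780) were averaged per gene, and genes with at least 3 were kept. Symbols are those of the files. A linear model with 1 mean for each group was fitted to all 6 arrays with limma 3.58.1 in R 4.3.3 (lmFit and eBayes, residual df 3), and p-values were adjusted by Benjamini-Hochberg over 15417 genes. Tables were made with Python 3.11.15 and pandas 2.3.3. The fit was tested on simulated data. For arrays, their number limits the precision. Both oligonucleotide comparisons share the Ctr arrays.

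Genes were named by rule: MALAT1, the 15 highest and 15 lowest genes called in every fit with 1 array left out and not dim in both groups, the 5 highest of any brightness, up to 4 such members of each list and up to 3 against its direction, the genes the study discusses, and the 5 highest and 5 lowest in AS1 against AS2. A further 60 genes were named after their values were seen. The groups, the members and the gene lists were chosen with earlier results of these data known. Promoter windows and motif letters are from RefSeq (GRCh38.p14). Alternatives were the probeset summary, filters on dim probesets and genes, normalisation, the variance model, the methods' threshold, the arrays in the fit, the replicate block and each array left out.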

Additional observations from a re-analysis of the deposited data

Results flagged for a closer look

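Of the 166 genes that differed between AS1 and AS2 the 32 named ones are given below. Their AS1 and AS2 responses differed in limma's direct test of AS1 against AS2 (adjusted p under 0.05), and their values are given as log2 AS1 minus AS2. Both responses share the Ctr arrays. Among interferon-induced genes and chemokines AS1 lay above AS2 by 2.55 for IFIT1, 2.39 for IFIT2, 1.99 for IFIT3, 1.53 for IFI44, 1.43 for HERC6, 1.36 for HERC5, 1.36 for IFIH1, 1.26 for OASL, 1.15 for CXCL10, 1.09 for RSAD2 and 1.09 for DDX58. Of these, CXCL10 (5.31 and 4.74 with AS1, 3.83 and 3.93 with AS2 and 4.43 and 4.52 with Ctr) and DDX58 were not called with AS1 against Ctr and were lower with AS2. Further secreted or signalling genes above AS2 were EDNRB by 1.12, CCL26 by 0.79 and PTGS2 by 0.74, and the zinc finger gene ZNF560 by 0.76.

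SECISBP2 (2.24) and CPSF2 (1.95) were near Ctr with AS1 and fell with AS2. Among the named genes lower with AS1 than with AS2, those that fell with AS1 were ELOVL6 (-2.07), RP2 (-1.82), BAT1 (-1.64), WDFY2 (-1.45), UTP15 (-1.22), PSMD5 (-1.11), FMNL2 (-1.07), ATR (-0.98), FAF1 (-0.93), EML4 (-0.92) and ZNF827 (-0.75). Of all 88 genes lower with AS1 than with AS2, 29 were called lower with AS1. The sulfate transporter SLC13A4 (-1.07), AGBL2 (-0.67) and AVIL (-0.67) rose with both and further with AS2, while MRGPRX4 (-1.94), a receptor of sensory neurons, rose with AS2 (2.43) and was at 0.49 ± 0.24 with AS1 (adjusted p = 0.192). Without AS2 replicate 1 the difference was called in 13 genes of all tested and without AS2 replicate 2 in 20, and all of these were among the 166. BAT1, EDNRB, HERC5, IFI44, IFIH1, IFIT3 and WDFY2 lost the call only without AS2 replicate 1.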

How the results depend on the processing

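MALAT1 and the 200 named genes that were called did not change direction under the alternatives run. With 1 array left out it could not change, since in every called gene both AS1 arrays lay on the same side of both Ctr arrays. The variance models, the replicate block and the methods' threshold leave the estimated change as it was. Only the probeset summary, the filter on dim probesets and the normalisation could have reversed a direction. The median change of all genes, -0.05, was 0.02 without AS1 replicate 1, 0.01 without Ctr replicate 1 and 0.05 with brighter genes only. The split of genes between AS1 and AS2 was 78 higher and 88 lower with all arrays, 122 and 86 without AS1 replicate 2, 9 and 4 without AS2 replicate 1 and 16 and 4 without AS2 replicate 2. The number of genes called with AS1 was 142 (95 higher, 47 lower) with a plain ANOVA, 525 (319 and 206) at the methods' threshold of over 2-fold and unadjusted p under 0.001, and 2252 to 2794 with 1 array left out (1183 to 1731 higher, 841 to 1069 lower). With the median of probesets 1204 genes were higher. The number that differed between AS1 and AS2 was 31 with the median of probesets, 110 with genes of 1 or more probesets, 374 with a variance trend, 274 with only the AS1 and AS2 arrays, 57 at the methods' threshold, 13 to 274 with 1 array left out and 0 with a plain ANOVA with Benjamini-Hochberg adjustment, where limma gave 1447 at an unadjusted p under 0.05. With a plain ANOVA MALAT1 was at -3.46 (adjusted p = 0.0904), and the members called were 0 for the kinetochore, spindle and replication lists, 1 for p53 targets, 2 for ATF4 and 1 for interferon. The limma counts in these lists stand in the report. The methods' threshold gave 9, 18, 11, 7 and 6 for the first 5 of these lists. Here and above it was applied to limma's unadjusted p and not to the p of the authors' own ANOVA. With brighter genes only, 6 kinetochore and 6 interferon genes were called, among fewer genes tested. With 1 array left out the called members were 13 to 23 (kinetochore), 32 to 41 (spindle), 20 to 28 (replication), 19 to 22 (p53), 12 to 16 (ATF4) and 12 to 19 (interferon), and MALAT1 lay between -4.16 and -2.75. Of 200 named genes that were called, 176 lost the call with a plain ANOVA, 90 at the methods' threshold and 22 with the median of probesets. Most of the 200 were named because their call held with each array left out. Those fits therefore cannot show how firm the calls of the named genes are. The causes were not tested.

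Equal replicate numbers did not pair the samples in all groups: their deviations correlated at -0.51 (AS1 and Ctr), -0.34 (AS1 and AS2) and 0.39 (AS2 and Ctr). AS1 arrays thus deviated with the opposite number in Ctr and AS2, and AS2 arrays with the equal number in Ctr. The main fit takes no account of this, and its reason was not tested. The replicate block gave 2361 AS1 calls (1427 higher, 934 lower) and 84 between AS1 and AS2. A crossed replicate block, with the AS1 numbers exchanged, was added after seeing the data. It called 4944 (2751 higher, 2193 lower) and 553, where the main fit called 3082 and 166. With 2 arrays a group and genes near the array background, small changes of dim genes were not detectable.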

Other observations

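Signalling genes outside the lists described so far moved in both directions. Of 17 measured genes of Notch signalling 3 rose (17.6%, beside 11.8% of all genes) and 1 fell (5.88%, beside 8.17%). The members that held were HEY1 (1.57 ± 0.16) and HES1 (0.86 ± 0.16), transcriptional repressors that Notch induces, and the ligand JAG1 (0.67 ± 0.14). HEY1 lay at 7.32 and 7.14 with AS1 and 5.61 and 5.71 with Ctr. In WNT signalling 7 of 37 fell and 4 rose. Fewer WNT genes rose in every fit that leaves out 1 array, and fewest without Ctr replicate 2. The WNT shares were 18.9% lower, beside 8.17% of all genes, and 10.8% higher, beside 11.8%. The receptor ROR1 lay at 7.02 and 7.03 with AS1 and 8.43 and 8.46 with Ctr (-1.42 ± 0.13), and the receptors FZD6 (-0.79 ± 0.14) and FZD7 (-0.77 ± 0.13) and the secreted inhibitor DKK2 (-0.85 ± 0.19) fell. Among growth factors and receptors ANGPT1, a ligand of endothelial cells, fell (-1.14 ± 0.15), and KIT (-0.89 ± 0.17) and its ligand KITLG (0.73 ± 0.13) changed in opposite directions. Of 17 circadian clock genes 6 rose and 0 fell, but 3 without AS1 replicate 1 and 2 without Ctr replicate 1, and BHLHE40 (0.70 ± 0.14) was the member that held. With all arrays 35.3% of the clock genes rose, beside 11.8% of all genes. The amino acid transporter-like gene SLC7A14 lay at 4.80 and 4.92 against 6.56 and 7.67 (-2.26 ± 0.28). Of 292 solute carriers 28 rose and 31 fell, shares of 9.59% and 10.6% beside 11.8% and 8.17% of all genes. Fewer solute carriers fell in every fit that leaves out 1 array, and fewest without Ctr replicate 1.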
